A study of Homo sapiens with 12 samples.

Results

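Clusters of PAR-CLIP reads that fell in small noncoding RNAs and in pseudogenes were examined in 12 libraries of wildtype HepG2 cells, an established line from a human liver tumour. PAR-CLIP (photoactivatable ribonucleoside-enhanced crosslinking and immunoprecipitation) marks the places where a protein touches RNA: cells are fed 4-thiouridine, RNA is crosslinked to protein by ultraviolet light, cut with RNase T1 and precipitated with an antibody to the protein. A cluster is a genomic interval in which such reads pile up with T-to-C conversions. The proteins were IGF2BP1, IGF2BP2 and IGF2BP3, a family of RNA-binding proteins studied here for recognition of internal m7G, and METTL1 with its partner WDR4, the complex that writes m7G. Each protein had 2 libraries, and IGF2BP3 had 2 more that carried the label bio2. All cells had the same genotype, 4-thiouridine labelling and crosslinking, and none of the 12 was an input or a mock precipitation. Whether replicates were separate cultures was not given in the labels, so the p-values here measure the spread between these libraries, which may be partly technical. The members were chosen by position alone: the midpoint of the cluster lay, on its own strand, in an exon of an snRNA, snoRNA, scaRNA, miRNA, misc_RNA, rRNA or pseudogene of GENCODE release 44 and in no exon of a protein-coding or lncRNA gene. On chromosomes 1 to 22, X and Y, 1994 of 96139 clusters met this rule, in 442 genes.

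Small noncoding RNAs are short stable transcripts with structural roles. Spliceosomal snRNAs build the splicing machinery, snoRNAs guide chemical modification of ribosomal RNA, the misc_RNA type of the annotation holds 7SL (the RNA of the signal recognition particle), Y RNAs and vault RNAs, and microRNAs direct silencing of mRNA. Pseudogenes are copies of other genes. Processed pseudogenes arose from a reverse-transcribed mRNA, and many pseudogenes are stretches of mitochondrial DNA that were inserted into nuclear chromosomes. A short read from such a copy can often be placed equally well on its parent, and the deposited intervals carry neither read counts nor conversion counts. Depth per cluster is therefore unknown, and a cluster in a pseudogene states where reads were placed, not which copy they came from.

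Of the 1994 clusters, 1551 lay in pseudogenes, 117 in snoRNAs, 96 in miRNA genes, 92 in misc_RNA genes, 75 in rRNA genes, 61 in snRNA genes and 2 in a scaRNA. The members made up 1.38% and 1.43% of the clusters of the IGF2BP1 libraries, 2.19% and 1.59% of IGF2BP2, 2.06% and 2.33% of IGF2BP3, 1.99% and 1.90% of METTL1, and 1.75% and 1.72% of WDR4. In the bio2 libraries of IGF2BP3 the share was 4.57% (95% Wilson interval 4.07% to 5.12%) and 4.52% (4.00% to 5.10%), above all other libraries. The intervals cover counting error over clusters only. The mean was 2.51% ± 1.30 (SD, n = 8) for IGF2BP proteins and 1.84% ± 0.127 (SD, n = 4) for METTL1 and WDR4 together. The difference of 0.667 percentage points did not pass (exact permutation, two-sided p = 0.325), and leaving out bio2 turned it to -0.0107 points (exact permutation p = 0.957). As a share of clusters in annotated exons it turned to -1.52 points and did not pass either (exact permutation p = 0.101).

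Overlapping clusters of all libraries were merged into sites. The members formed 614 sites, of which 345 (56.2%) were in at least 2 libraries, where 39.1% of all merged sites were. Dense clusters can join into long sites, and copies of one sequence count as separate sites, so these shares are a description.

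**Figure D1:**
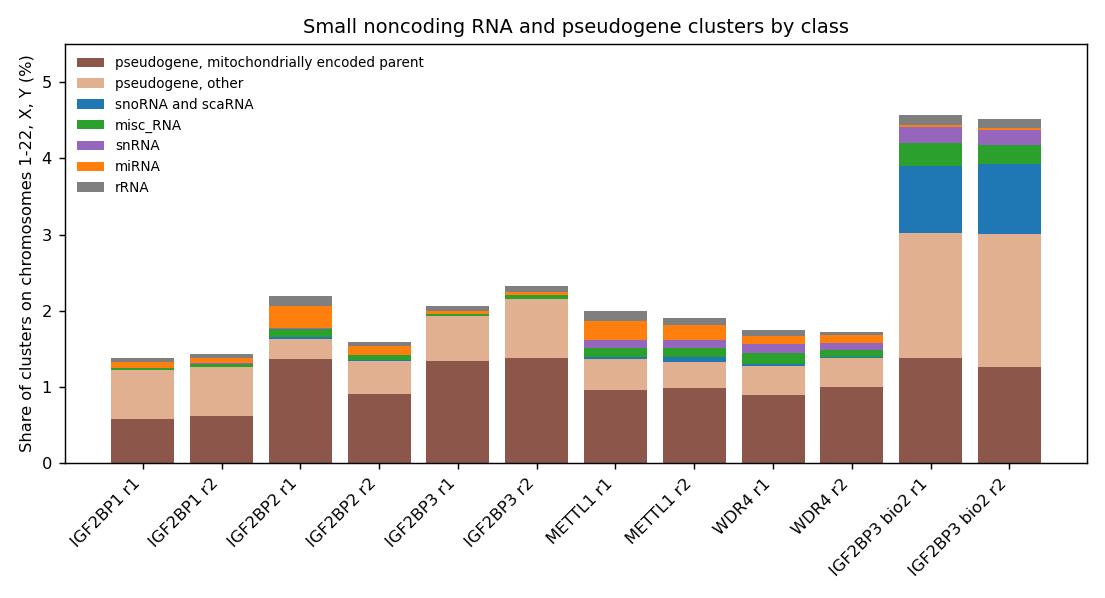
Stacked bars give, for each library (r1 and r2 are replicates), the share in percent of clusters on chromosomes 1 to 22, X and Y that lay in each class. Pseudogenes make up most of every bar, and the 2 bio2 bars, at 4.57% and 4.52%, carry a snoRNA part that the other libraries nearly lack.

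The sequences that carry the findings on small RNAs are given first. They were read from GRCh38 at the centre of the site shared by most libraries, on the strand of the gene, 5′ to 3′. Capitals mark CAUH in the 5 sequences of rRNA, misc_RNA and snRNA genes, that is CAU followed by A, C or U (searched as CATA, CATC and CATT), a motif known for IGF2BP proteins. In the 3 SNORD sequences capitals mark TGATGA, the core of the C box by which C/D box snoRNAs bind their proteins, which the stretches of SNORD17 and SNORD100 do not hold.
RNA5-8SN2 (chr21:8212575-8212604, plus strand, nucleotides 4 to 33 of the gene): tcttagcggtggatcactcggctcgtgcgt
RNY1 (chr7:148987157-148987186, minus strand, nucleotides 63 to 92): ccttgttctactctttccccccttctcact
Y_RNA (chr19:11408828-11408857, plus strand, nucleotides 57 to 86): ctccttgttctactctttccccccttctca
RN7SL1 (chr14:49586637-49586666, plus strand, nucleotides 58 to 87): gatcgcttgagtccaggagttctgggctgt
RN7SK (chr6:52995905-52995934, plus strand, nucleotides 285 to 314): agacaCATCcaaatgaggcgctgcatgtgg
SNORD17 (chr20:17962832-17962861, minus strand, nucleotides 86 to 115): ggctatgtagcctgaaaatgccctgcagtc
SNORD100 (chr6:132816815-132816834, plus strand, nucleotides 14 to 33): acaactggctccctctactg
SNORD104 (chr17:64146086-64146115, plus strand, nucleotides 4 to 33): gTGATGAcattccaattaaagcacgtgtta

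The most constant small RNA was 5.8S ribosomal RNA, a component of the large ribosomal subunit. Its 4 annotated genes with clusters (RNA5-8SN1, RNA5-8SN2, RNA5-8SN3 and one named 5_8S_rRNA, 153 nt each, on chromosome 21) held all 75 rRNA clusters, and all but RNA5-8SN3 held a cluster in all 12 libraries. The share of clusters in rRNA genes ran from 0.0462% to 0.133%. It averaged 0.0864% ± 0.0342 (SD) over 8 IGF2BP libraries and 0.0852% ± 0.0354 over 4 of METTL1 and WDR4, a difference that did not pass (exact permutation, adjusted p = 0.960 over 7 classes). As a share of clusters in annotated exons, rRNA was lower in IGF2BP libraries by -0.106 points and this passed (exact permutation, adjusted p = 0.0354). Clusters at the 5′ end of RNA5-8SN2 were present in all 12 libraries and clusters at its 3′ end in 9, where most reached the last nucleotides of the gene. The centre of every rRNA cluster had at least 8 exact copies in the genome assembly, and 73 of the 75 had a cluster of the same library on another copy. The 4 genes thus repeat the same clusters and are not independent sites.

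Y RNAs are bound by the Ro60 protein and have been tied to RNA quality control and DNA replication. RNY1, on chr7:148987136-148987248, held 1 cluster in each of 11 libraries and none in METTL1 replicate 1. The gene named Y_RNA on chr19:11408772-11408880 held 1 cluster in each of 11 libraries and none in IGF2BP3 replicate 1. The 2 sequences above overlap in all but their ends, and the sites are copies of the same pyrimidine-rich stretch. In RNY1 the median cluster ran from nucleotide 59 to 96 of 113, and the centre occurred 5 to 13 times in the assembly. RNY3 and RNY4 held clusters in the bio2 libraries alone.

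Among 7SL genes, RN7SL1 (chr14:49586580-49586878) held clusters in 7 libraries and RN7SL5P (chr9:9442060-9442380), a further copy, in 7 that were not all the same. Neither held one in IGF2BP1, nor in IGF2BP3 outside bio2. Most clusters of both began at nucleotide 46, and the centre had a median of 23 copies. None of the bio2 clusters of these genes began there; they lay further 3′. RN7SL800P (chr17:62005737-62006016) went the other way: it held a cluster in all 6 IGF2BP libraries without the bio2 label, in WDR4 replicate 1 and in no other. Its site lay near the 3′ end of the gene, and its centre had 3 to 10 copies. RN7SL396P, on chromosome 8, held 1 cluster in each of the 4 METTL1 and WDR4 libraries and none in the 8 IGF2BP libraries. Its site also began at nucleotide 46, and the centre had 23 to 30 copies. All 4 clusters had a cluster of the same library on another copy. The RN7SL1 site with that start held clusters of both IGF2BP2 libraries, so the pattern of RN7SL396P is one of placement on this copy. Of all 43870 merged sites on these chromosomes, 47 (0.107%) were in all 4 METTL1 and WDR4 libraries and in no IGF2BP library, and 2 of the 614 member sites were (0.326%).

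**Figure D2:**
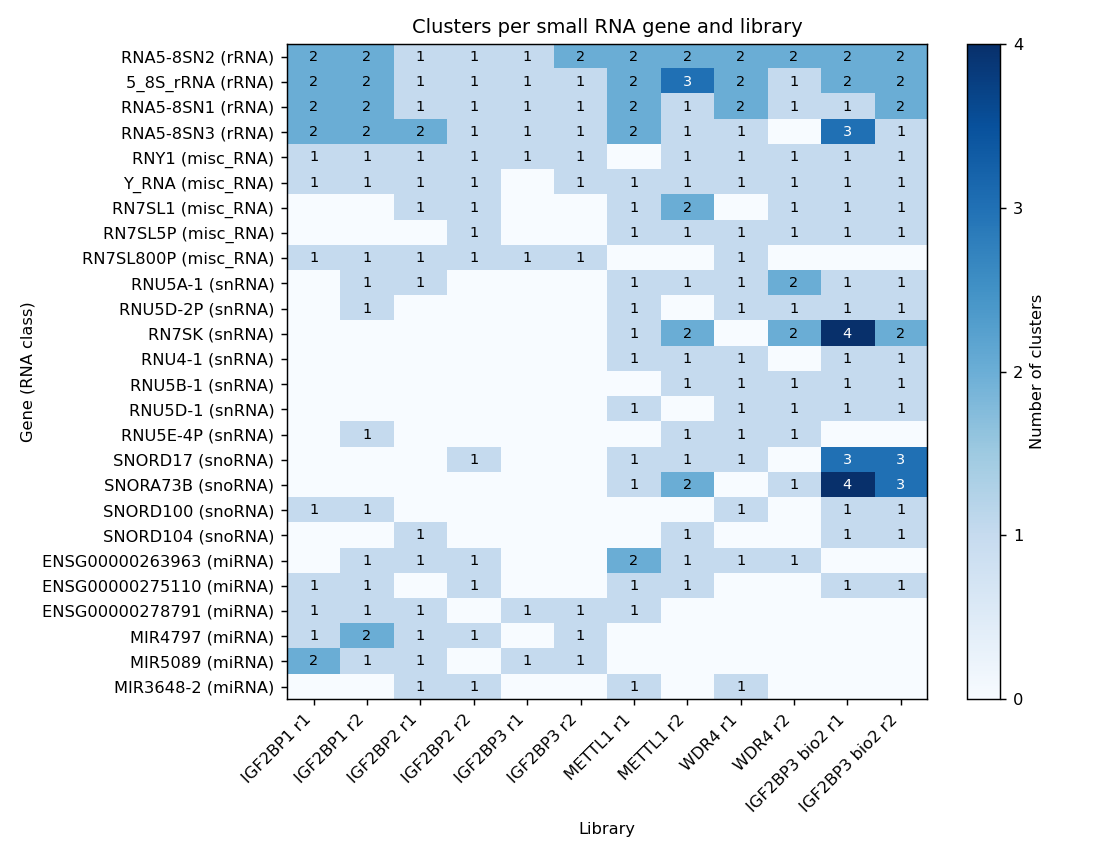
Each cell gives the number of clusters in one small RNA gene (rows, with the RNA class) and one library (columns), for the 26 genes outside chromosome 8 with clusters in at least 4 libraries. The 5.8S and Y RNA rows are nearly full, whereas the snRNA rows are filled mainly in the METTL1, WDR4 and bio2 columns.

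The snRNA clusters lay mainly in the METTL1, WDR4 and bio2 libraries. U5 snRNA, which holds the exons in place during splicing, led the class: RNU5A-1 (chr15:65296051-65296166) held clusters in 8 libraries, among them all 4 METTL1 and WDR4 libraries and both bio2 libraries. RNU5D-2P (chr9:132421641-132421690) held clusters in 6 libraries, and RNU5B-1 and RNU5D-1 in 5 each. Over all RNU5 genes, 7 of 31 annotated held 34 clusters. The centre had a median of 18 copies in RNU5A-1 and 11 in RNU5B-1. There, 8 of 9 and 5 of 5 clusters had a cluster of the same library on another copy. Of all 52 multi-copy snRNA clusters, 40 had one. These genes can thus repeat the same clusters and are not independent sites. RNU4-1, which pairs with U6 in the tri-snRNP, held clusters in 5 libraries. RN7SK, the RNA that holds the transcription factor P-TEFb inactive and is typed as snRNA in this annotation, held 11 clusters in 5 libraries, 1 in METTL1 replicate 1, 2 in METTL1 replicate 2, 2 in WDR4 replicate 2, and 4 and 2 in the bio2 libraries. RNU1 genes held 4 clusters and RNU2 genes 2. None of 1276 annotated RNU6 genes, of 67 RNU11, RNU12, RNU4ATAC and RNU6ATAC genes or of 149 RNU7 genes held one. The mapping by the authors dropped reads with too many best places, so reads from RNAs with many copies may have been lost. Exact copies of these genes were not counted. The lack of clusters therefore cannot show whether these RNAs were bound.

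The share of clusters in snRNA genes was 0.0987% and 0.0994% in METTL1, 0.120% and 0.0925% in WDR4, and 0.217% and 0.198% in the bio2 libraries of IGF2BP3. In the other 6 IGF2BP libraries it lay between 0% and 0.0241%, with 0 clusters in 4 of them. A count of 0 allows a share of up to 3 clusters of the library. Over all 12 libraries the groups differed by -0.0452 points and the difference did not pass (exact permutation test, adjusted p = 0.721), since the bio2 libraries lay above and the other IGF2BP libraries below METTL1 and WDR4. Without the bio2 libraries the share was 0.00733% ± 0.0114 (SD, n = 6) against 0.103% ± 0.0118 (SD, n = 4), the groups did not overlap, and the difference passed (exact permutation p = 0.00476, the smallest that 210 splits allow, adjusted p = 0.0333). The misc_RNA class passed in the same setting, at 0.0492% ± 0.0292 against 0.121% ± 0.0157 (n = 6 and 4, exact permutation, adjusted p = 0.0333). With all 12 libraries it did not (adjusted p = 0.959, exact permutation).

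The snoRNA clusters lay almost wholly in the bio2 libraries. These held 52 and 50 snoRNA clusters, 0.867% and 0.900% of their clusters, while the other 10 libraries held 0 to 5 each, 15 in all, or 0% to 0.0621%. In all, 53 snoRNA genes held clusters: 47 of them in bio2 libraries alone, 31 in both bio2 libraries, and 1 in other libraries alone. Of the 65 merged snoRNA sites, 29 (44.6%) were in both bio2 libraries and in no other, where the share over all merged sites was 3.12%. The METTL1 and WDR4 libraries had 2, 5, 3 and 1 snoRNA clusters. The other 6 IGF2BP libraries had 0 or 1 each, and without the bio2 libraries METTL1 and WDR4 were higher (0.0348% ± 0.0208 against 0.00871% ± 0.00923, n = 4 and 6, exact permutation, adjusted p = 0.0444). With them, the difference ran the other way and did not pass (0.193 points, exact permutation, adjusted p = 0.721). The labels do not say what bio2 stands for, and its part in these counts was not tested.

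SNORD17 (chr20:17962710-17962946), a long C/D box snoRNA, was found in most libraries of this class, with 3 clusters in each bio2 library and 1 each in IGF2BP2 replicate 2, METTL1 replicate 1, METTL1 replicate 2 and WDR4 replicate 1. SNORA73B (chr1:28508559-28508762), also known as U17 and needed for early cleavage of the ribosomal RNA precursor, held 4 and 3 clusters in the bio2 libraries, 1 and 2 in METTL1 and 1 in WDR4 replicate 2. SNORD100 (chr6:132816802-132816877) held 1 cluster in each IGF2BP1 library, in WDR4 replicate 1 and in each bio2 library. SNORD104 (chr17:64146083-64146152) held 1 in IGF2BP2 replicate 1, in METTL1 replicate 2 and in each bio2 library. The centres of SNORD17, SNORD100 and SNORD104 clusters had no exact copy elsewhere in the assembly; near copies were not searched. SNORD3A, the U3 snoRNA that takes part in processing of the ribosomal RNA precursor, held 1 cluster in WDR4 replicate 1 and 1 and 2 in the bio2 libraries. Its centre had 5 copies. SCARNA11, a guide RNA of Cajal bodies on chr12:6581474-6581609, held 1 cluster in each bio2 library and none elsewhere. Vault RNAs VTRNA1-2 and VTRNA1-3 held the same pattern.

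In SNORD genes of the bio2 libraries, 76 clusters lay in 38 genes. Of these, 30 (39.5%) began within 10 nt of the annotated 5′ end, 25 (32.9%) ended within 10 nt of the 3′ end, and 22 lay away from both ends. The median cluster was 33.5 nt wide and the median gene length was 90 nt, so many possible placements lie near an end. The share due to chance was not computed. TGATGA was in 38 of all 86 SNORD clusters after widening by 10 nt on both sides (44.2%), as shown for SNORD104 above. It was in 14.9% of all 54-nt windows of the same 38 genes and in 33.6% of those of the 313 annotated SNORD genes. Windows were pooled over genes, 4794 in the 38 and 19054 in the 313. Long genes thus weigh more in these shares. In other member clusters TGATGA was in 0.852%, and in clusters that were not members in 0.813%. A match is a description of the sequence under the cluster. The 12 SNORA genes, of the H/ACA type, held 26 clusters, 21 of them in bio2 libraries, and none with TGATGA.

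**Figure D3:**
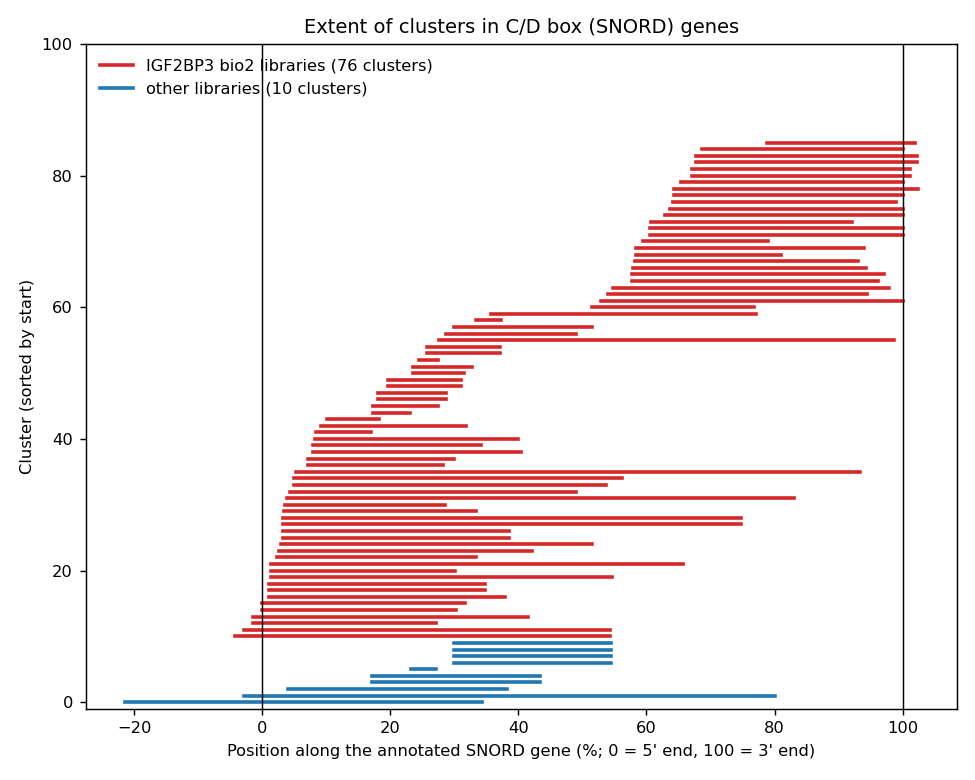
Each line is one cluster in a SNORD gene, drawn from its start to its end as a percentage of the annotated gene, with the 10 clusters of the other libraries at the bottom and the 76 of the bio2 libraries above them. Many bio2 clusters begin near the 5′ end or stop near the 3′ end.

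MicroRNA genes held 96 clusters in 51 genes. The share was 0.289% and 0.115% in IGF2BP2, 0.247% and 0.199% in METTL1, 0.109% and 0.0925% in WDR4, 0.0793% and 0.0598% in IGF2BP1, 0.0327% and 0.0466% in IGF2BP3, and 0.0167% and 0.0180% in the bio2 libraries. The IGF2BP libraries overlapped with METTL1 and WDR4, and the difference of -0.0796 points did not pass (exact permutation, adjusted p = 0.573). As a share of clusters in annotated exons it was -0.316 points and passed (exact permutation, adjusted p = 0.0354). By position, 50 clusters covered at least 15 nt of a mature microRNA of RefSeq. The 4 mature sequences below are shown because all or most of their clusters lay on one arm in several libraries of one kind, with the seed (bases 2 to 8) in capitals.
hsa-miR-222-3p (chrX:45747036-45747056, minus strand): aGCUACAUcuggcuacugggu
hsa-miR-744-5p (chr17:12081909-12081930, plus strand): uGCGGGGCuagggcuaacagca
hsa-miR-5089-5p (chr17:46973027-46973047, plus strand): gUGGGAUUucugaguagcauc
hsa-miR-4797-5p (chr3:197293919-197293939, minus strand): gACAGAGUgccacuuacugaa
The 4 seeds differ from each other. For MIR222 the clusters of both IGF2BP2 libraries covered 21 and 19 nt of the 3p arm, and no other library held one. For MIR744 the clusters of METTL1 replicate 1 and both WDR4 libraries covered 18 or 19 nt of the 5p arm, with no IGF2BP library. The MIR744 clusters began at the first base of the mature form and ended within it, whereas 5 of the 6 clusters of MIR5089, all from IGF2BP libraries, began before the annotated start of the gene and covered the whole 5p arm. In MIR4797, too, 5 of 6 clusters, all from IGF2BP libraries, began before the gene and covered the 5p arm. The remaining cluster lay on the opposite arm in both genes. It covered 23 nt of the 3p arm of MIR5089 in IGF2BP1 replicate 1, and 21 nt of that of MIR4797 in IGF2BP1 replicate 2. The MIR5089 centres were single-copy and those of MIR4797 occurred 2 times. IGF2BP2 replicate 1 held the single clusters of MIR26A1, MIR29A, MIR182, MIR183 and MIRLET7G. These 5 genes were picked after their values were seen. Of the microRNAs known from liver and from IGF2, MIR483 held 1 cluster in IGF2BP1 replicate 2 and 1 in METTL1 replicate 2, while MIR122, MIR21 and MIR675 held none. Clusters that also lay in a protein-coding or lncRNA exon were left out by the rule, so these genes may have held clusters that were not counted. The 3 microRNA genes found in most libraries carried only an Ensembl name (ENSG00000263963, ENSG00000275110 and ENSG00000278791), and their centres had 2 to 8 copies. None of their clusters covered any base of a mature microRNA of RefSeq. The clusters of ENSG00000278791 and ENSG00000263963 lay inside the stretches of mitochondrial pseudogenes on chromosomes 1 and 5 described below.

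Pseudogenes gave 77.8% of the members. They took 1.94% ± 0.735 (SD, n = 8) of all clusters for IGF2BP proteins and 1.34% ± 0.0471 (SD, n = 4) for METTL1 and WDR4. The difference of 0.609 points did not pass (exact permutation test, adjusted p = 0.573), and as a share of clusters in annotated exons it turned to -0.923 points (exact permutation, adjusted p = 0.144). By parent, 925 clusters (59.6%) lay in pseudogenes of mitochondrially encoded genes, 458 (29.5%) in those of other protein-coding genes, 31 (2.00%) in those of cytosolic ribosomal proteins, and 137 (8.83%) could not be assigned. As a share of the pseudogene clusters of a library, the mitochondrial family was 47.9% and 49.5% in IGF2BP1, 83.8% and 67.7% in IGF2BP2, 69.5% and 64.0% in IGF2BP3, 69.9% and 73.8% in METTL1, 70.1% and 73.1% in WDR4, and 45.9% and 41.9% in bio2. METTL1 and WDR4 lay within 69.9% to 73.8%, inside the range of the IGF2BP libraries, and the mean difference of -12.9 points did not pass (exact permutation, adjusted p = 0.251). Without IGF2BP2 replicate 1, the highest library, it was -16.5 points and passed (exact permutation, adjusted p = 0.0242). This was the largest difference of all settings that left out 1 library, so the result depends on that choice. The family of other protein-coding genes showed the mirror image, 12.2 points higher in IGF2BP libraries (exact permutation, adjusted p = 0.210) and 14.9 points higher without that library (adjusted p = 0.0242, exact permutation). Both families are shares of one total and make up most of it, so this is not a separate result. Cytosolic ribosomal protein pseudogenes, one of the largest pseudogene groups of the genome, had 18 genes with clusters. Their share was 4.97% and 5.39% of pseudogene clusters in the bio2 libraries and at most 2.52% elsewhere.

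The mitochondrial pseudogenes clustered on 2 stretches. The segment chr1:629062-634922 spans MTND1P23, MTND2P28, MTCO1P12, MTCO2P12, MTATP8P1, MTATP6P1 and MTCO3P12, copies of a run of genes for respiratory chain subunits, and held 446 clusters, 48.2% of the family, with 30 to 44 in each library. The segment chr5:134924123-134928326 spans MTND6P4, MTND5P11, MTND4P12 and MTND4LP30 and held 209 clusters, 11 to 24 in each library. MTCO1P12, a copy of the cytochrome c oxidase subunit gene MT-CO1, held 140 clusters in all 12 libraries, 10 to 15 in each. MTND2P28 held 111 (7 to 12 in each) and MTND4P12 held 108 (5 to 12 in each), both copies of NADH dehydrogenase subunits. MTND5P11 held 67, MTCO2P12 held 56, MTATP6P1 held 45, MTCO3P12 held 44 and MTND1P23 held 38, each in all 12 libraries. Of the 24 member sites present in all 12 libraries, 21 lay in this family and 3 in 5.8S rRNA. These 24 were 3.91% of the 614 member sites, where 0.424% of all merged sites were in all 12. Dense clusters joined into long sites, such as chr1:631862-632390 in MTCO1P12 with 46 clusters, and a long site reaches all libraries more easily. MTND6P22 held 1, 2, 1 and 2 clusters in METTL1 and WDR4 and none in the 8 IGF2BP libraries. The centre of its most shared site had 4 copies, and all 4 clusters there had a cluster of the same library on another copy. Over the 4 pseudogenes of MT-ND6 with clusters, 6 of 8 IGF2BP libraries held one, so the sequence was not limited to METTL1 and WDR4. MTCO1P53 held clusters in all 4 METTL1 and WDR4 libraries and in 2 of 8 IGF2BP libraries. MTND4P35 held clusters in all 8 IGF2BP libraries and in 1 of 4 METTL1 and WDR4 libraries.

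The mitochondrial pseudogene clusters were set against the mitochondrial genome itself. Of the 925, 546 (59.0%) had no difference from it over the whole cluster, 376 (40.6%) had 1 to 4 differences and 3 had more. Tiles of 42 nt, the median width of these clusters, laid end to end over the same 55 pseudogenes gave 7.34% with no difference and 32.1% with 1 to 4, and 619 of 1022 had more than 4. Mapping by the authors allowed up to 3 mismatches in a read. Of the 780 clusters whose central 20 nt occurred more than once in the assembly, 721 (92.4%) had a cluster of the same library on another copy, and in 701 of them that was the mitochondrial chromosome.

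The other 145 clusters of the family had a centre found nowhere else. Such a centre is absent from the mitochondrial genome too, so a difference was to be found by this choice. It was found in 144 of these clusters, and in 143 it was at 1 to 4 places. Sites in MTND2P28 and MTCO2P22, among the most shared of these, are shown with the best ungapped stretch of the mitochondrial chromosome, and capitals mark the bases at which the pair differ.
MTND2P28 (chr1:630074-630103, plus strand, 12 libraries): TtctccctcaTtaaacgtaagccttctcct
MT-ND2 (chrM:4904-4933, plus strand): CtctccctcaCtaaacgtaagccttctcct
MTCO2P22 (chr5:100053161-100053190, minus strand, 9 libraries): tcttcaactcctaTatactCcccccattat
MT-CO2 (chrM:7935-7964, plus strand): tcttcaactcctaCatactTcccccattat
Both pairs differ at 2 places, and both have a place with T in the pseudogene and C in the mitochondrial genome. That is the base change that PAR-CLIP reads as a conversion. Of the 143 single-copy clusters with 1 to 4 differences, 109 (76.2%) held at least 1 such place. Of the 233 multi-copy clusters with 1 to 4 differences, 113 (48.5%) did, and of the 328 tiles with 1 to 4 differences, 190 (57.9%) did. Counted by base, T in the pseudogene against C in the mitochondrial genome made up 48.5% of the differences in single-copy clusters and 32.4% in tiles. The reverse, C against T, made up 21.2% and 24.2%. Sites on one pseudogene recur across libraries and are not independent, so no test was made, and its part in the calling of these clusters was not tested.

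**Figure D4:**
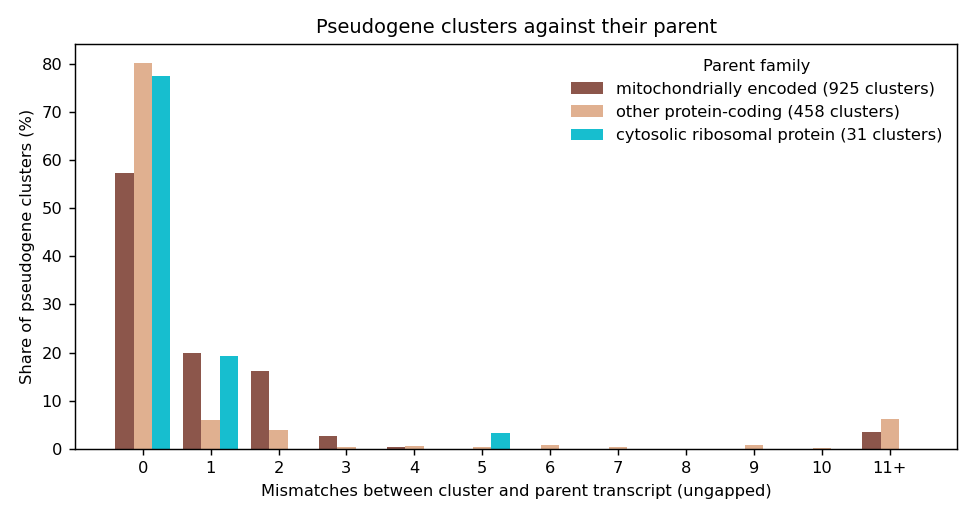
Bars give the share of pseudogene clusters of each parent family, in percent, by the number of mismatches in the best ungapped match of the whole cluster to the parent transcript (11+ is 11 or more, and includes clusters that ran past an end of the annotated pseudogene). No mismatch was found in 57.3% of the mitochondrial family, 80.1% of other protein-coding genes and 77.4% of cytosolic ribosomal proteins.

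Among other protein-coding parents, 367 of 458 clusters (80.1%) matched the parent transcript without mismatch, and 420 had a multi-copy centre. Of these 420, 269 (64.0%) had a cluster of the same library on another copy. GAPDH, the glycolytic enzyme, was the parent with clusters in all 12 libraries: 10 pseudogenes held 30 clusters, 28 of them without mismatch and 25 with a cluster on another copy. TECR, which acts in fatty acid elongation, had 12 clusters in 11 libraries, all in TECRP1 on chr4:86949669-86950113, all without mismatch and with 2 copies in the assembly. Only 4 of these 12 had a cluster on the other copy in the same library. FTL, the ferritin light chain, had 24 clusters in 9 libraries, 8 of 8 IGF2BP and 1 of 4 METTL1 and WDR4. EIF4B, a helper of the eIF4A helicase in translation initiation, had 15 clusters in 7 IGF2BP libraries and none in METTL1 or WDR4, all 15 without mismatch. SSBP3, AIDA and HSPD1 had clusters in 6 IGF2BP libraries each and in no METTL1 or WDR4 library. In the other direction the differences were smaller in count: PKD1 had clusters in 3 of 4 METTL1 and WDR4 libraries and in 1 of 8 IGF2BP libraries, and PI4KA, PPP1R14B, TCAF1 and the ribosomal protein gene RPS18 in 2 of 4 and 0 of 8. These lists were ranked on the presence of clusters and are a description. Of all merged sites, 0.294% were in all 8 IGF2BP libraries and in no METTL1 or WDR4 library, and 1 of the 614 member sites was (0.163%).

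Some pseudogene clusters did not match the parent transcript closely without gaps. IPO5P1 (chr19:23255053-23257939), a copy of the nuclear import receptor gene IPO5, held 7 clusters with 13 to 28 mismatches in 5 libraries, 5 of them with a single-copy centre. DUXAP10 and DUXAP9, copies of the homeobox gene DUXA, held 4 and 3 such clusters with 11 to 19 mismatches. A count of this kind includes any bases that lie opposite a gap or outside the copied stretch. In MTCO1P2, MTCO1P12 and MTND5P11 the clusters with over 10 mismatches to the parent transcript ran past an end of the annotated pseudogene, and only 3 of the 925 clusters of the mitochondrial family had more than 4 differences from the mitochondrial genome. TUBAP2 (chr11:90282560-90284172) was found in 11 libraries and its parent could not be resolved by the rule.

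Multi-copy sequence was more common in members than in other clusters in every library. Pseudogenes, 77.8% of members, are copies by definition, so this direction was largely set by the rule that chose the members. The sign-flip test below is therefore no evidence of a further difference. The central 20 nt occurred more than once in 81.3% ± 4.11 (SD, n = 12) of member clusters and in 40.2% ± 10.5 of the other clusters, a difference of 41.1 ± 9.52 points that was positive in 12 of 12 libraries (two-sided exact sign-flip test, p = 0.000488, the smallest possible). Copies on alternate contigs count here, and with chromosomes 1 to 22, X, Y and M alone the difference was 41.6 points. The difference was 46.2 ± 6.80 points in IGF2BP libraries (n = 8) and 30.9 ± 3.85 in METTL1 and WDR4 (n = 4), where more of the other clusters were multi-copy (exact permutation test of the difference, p = 0.00404). Within members the share was alike, 81.4% ± 4.92 and 81.1% ± 2.28, and the difference of 0.271 points did not pass (exact permutation, p = 0.925). It was 100% in rRNA, 90.2% in misc_RNA, 85.2% in snRNA, 84.5% in pseudogenes, 49.0% in miRNA and 29.9% in snoRNA.

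Sharing between the 2 libraries of a group was compared without a test. A cluster of the partner library overlapped 76.9% of IGF2BP1 members, 66.3% of IGF2BP2, 80.8% of IGF2BP3, 77.1% of bio2, 50.0% of METTL1 and 54.5% of WDR4. For the other clusters the values were 70.6%, 51.6%, 73.3%, 68.9%, 22.2% and 25.1%. The members were above the other clusters in each of the 6 groups, by the widest margin in METTL1 and WDR4. Median width was 37.1 nt for members and 39.3 nt for other clusters on average over the libraries (difference -2.25 ± 2.42 nt, n = 12, exact sign-flip p = 0.0156). Against clusters in protein-coding exons alone the difference was 0.333 nt and did not pass (exact sign-flip p = 0.662).

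CAUH was found in member clusters, widened by 10 nt on both sides, in 66.7% and 68.4% of IGF2BP1, 68.1% and 64.9% of IGF2BP2, 73.8% and 74.0% of IGF2BP3, 60.6% and 66.5% of bio2, 61.2% and 58.2% of METTL1, and 55.9% and 58.4% of WDR4. The IGF2BP libraries were higher by 9.47 points (67.9% ± 4.45, n = 8, against 58.4% ± 2.15, n = 4, exact permutation p = 0.00606), and 1 IGF2BP library lay within the range of METTL1 and WDR4. With the protein as the unit the difference was 9.18 points at p = 0.1 (exact permutation), the smallest that 3 against 2 proteins allow. With clusters of at least the median width it was 10.5 points and did not pass (exact permutation p = 0.0566).

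This share was a mixture of parts that behaved differently. In pseudogenes of mitochondrially encoded genes CAUH was in 83.2% ± 3.54 of clusters in IGF2BP libraries and 80.3% ± 5.67 in METTL1 and WDR4, a difference of 2.93 points that did not pass (n = 8 and 4, exact permutation p = 0.289). In all other members it was in 53.1% ± 9.42 and 34.3% ± 4.58, a difference of 18.8 points that passed (n = 8 and 4, exact permutation p = 0.00606). The IGF2BP2 libraries, at 41.2% and 37.5%, lay close to the highest METTL1 or WDR4 library (36.7%), and the other IGF2BP libraries had 52.3% to 63.6%. This pool mixes classes that differ in CAUH, as given below, in proportions that differed between libraries. The part of that mix in the difference was not tested. The mitochondrial family is rich in the motif by sequence: 74.5% of all 62-nt windows of its pseudogenes held CAUH, against 43.0% of 54-nt windows of the other member genes. Against the other clusters of the same library, members were 8.04 ± 11.5 points higher in CAUH (9 of 12 libraries, exact sign-flip p = 0.0371). This did not pass without any one of IGF2BP1 replicate 1 (8.26 points), the IGF2BP2 replicates (7.29 and 7.39), the METTL1 replicates (6.54 and 6.93) or the WDR4 replicates (7.52 and 7.35). Without the mitochondrial family they were 9.82 points lower (12 of 12 libraries lower, exact sign-flip p = 0.000488, the smallest possible), so the sign of the comparison rests on that family. By class, CAUH was in 9 of the 75 rRNA clusters and in 23.9% of misc_RNA, 42.6% of snRNA, 36.5% of miRNA, 54.7% of snoRNA and 59.4% of the pseudogene clusters outside the mitochondrial family. Of all windows as long as the median widened cluster of the class, 49.6% held it in the rRNA genes, 51.0% in misc_RNA, 54.2% in snRNA, 38.2% in miRNA, 37.8% in snoRNA and 42.4% in those pseudogenes.

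**Figure D5:**
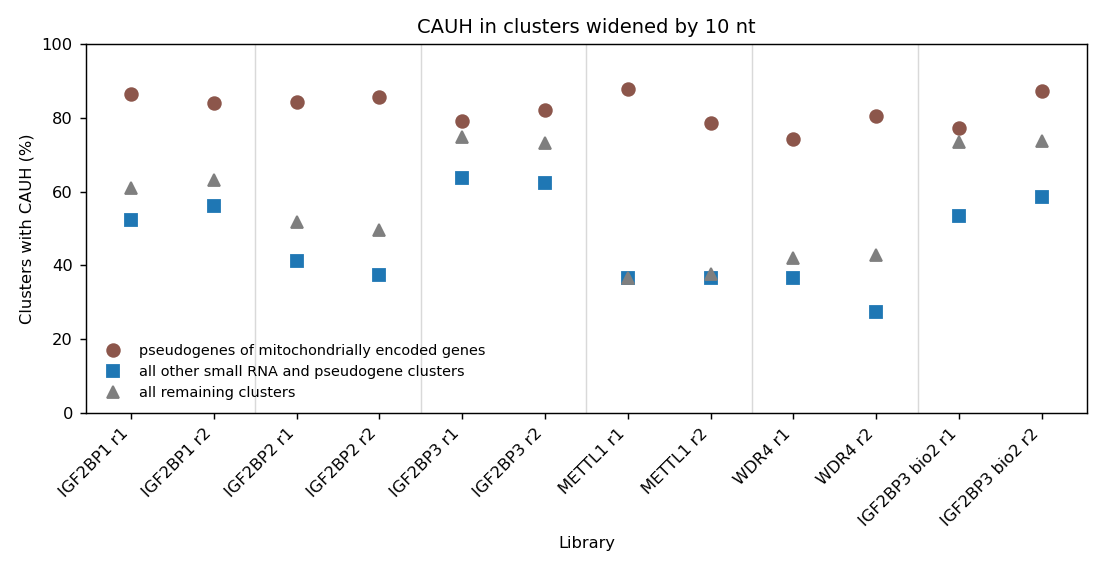
Points give the share of clusters with CAUH, in percent, for each library: circles for pseudogenes of mitochondrially encoded genes, squares for all other members and triangles for all remaining clusters on chromosomes 1 to 22, X and Y. The circles stay between 74.4% and 87.9% in every library, whereas squares and triangles lie lower in METTL1 and WDR4 than in IGF2BP1 and IGF2BP3.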

How the data were processed

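PAR-CLIP clusters of 12 HepG2 libraries were analysed. The authors state that low-quality reads were removed, adapters clipped and duplicates collapsed (FASTX toolkit), that reads of more than 15 nt were kept, and that these were mapped with bowtie (up to 3 mismatches, reads with more than 10 best places dropped) before PARalyzer called clusters. The submitters' notes name hg38 and Bowtie. The deposited files are of the unit other: each line is an interval, with no score, count or conversion number, so depth per cluster is unknown. Reads with several best places can be placed on any copy.

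Starts were read as counted from 1: the base before a cluster was G in most clusters, as RNase T1 leaves it. Clusters were classed by midpoint and strand against GENCODE 44, in the order rRNA, snRNA, snoRNA, scaRNA, miRNA, misc_RNA, pseudogene. Exact copies of the central 20 nt were counted on both strands of all hg38 contigs. A parent was read from the pseudogene's symbol (1279 clusters) or, failing that, from a match of the centre to the transcripts of 1 protein-coding gene (135). Sites were clusters merged by an overlap of 1 nt. Two-sided exact permutation tests compared groups over 495 splits, with Benjamini-Hochberg adjustment over 7 classes or 4 families, and exact sign flips over 4096 patterns compared members with other clusters, at a threshold of 0.05. Alternatives left out libraries, used proteins as units or changed filters. Named genes were fixed families of small RNAs, the genes and parents found in most libraries per class, and those with the largest difference in presence between groups. The members and lists were chosen with earlier results of these data known. Functions were tested with 8 checks, most on small made-up inputs, and the copy counts were checked by a plain search of the mitochondrial genome. Python 3.11.15 with numpy 2.4.6, pandas 2.3.3, pysam 0.24.0 and scipy 1.17.1 was used, and sequences came from hg38 and RefSeq (GRCh38.p14, microRNAs). Replicate numbers were checked for pairing: 15 correlations of replicate differences over 17157 sites lay between -0.0200 and 0.0198, so they were not taken as pairs. Some stretches of sequence are not reported here.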

Additional observations from a re-analysis of the deposited data

Results flagged for a closer look

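In the share of clusters in miRNA genes, IGF2BP2 replicate 1 stood apart from the other 7 IGF2BP libraries, at 0.289%. In the METTL1 and WDR4 libraries, WDR4 replicate 2 stood low in the share of pseudogene clusters with other protein-coding parents (15.1%), and METTL1 replicate 2 stood low in the share with an unresolved parent (3.74%). Chance flags about 1 in 20 such groups, and 33 were examined.

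The difference between members and other clusters in multi-copy share was 15.4 points larger in IGF2BP libraries than in METTL1 and WDR4 (exact permutation p = 0.00404). The same difference in CAUH share differed by -15.8 points between IGF2BP and the other libraries (2.76 ± 10.1, n = 8, against 18.6 ± 4.84, n = 4, exact permutation p = 0.0202). In both, the other clusters moved more than the members: CAUH in other clusters was 65.1% and 39.8%.

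The rule left out 354 clusters in small RNA or pseudogene exons that also lay in a protein-coding or lncRNA exon. Of their snoRNA clusters, 144 were in the bio2 libraries and 28 in the other 10, over 73 snoRNA symbols. With them the snoRNA share was 2.02% and 2.25% in bio2 and at most 0.192% elsewhere.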

How the results depend on the processing

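Of 316 alternative values, 270 kept the direction and the side of the threshold. The cause of the changes below was not tested.

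Without the bio2 libraries (IGF2BP minus METTL1 and WDR4, in points) the member share was -0.0107, rRNA -0.0133, snRNA -0.0952, snoRNA -0.0261, misc_RNA -0.0719 and pseudogenes with unresolved parent -0.529. With the protein as the unit, rRNA was -0.00362 and CAUH 9.18. In clusters at or above the median width, snRNA was 0.00786, cytosolic ribosomal protein pseudogenes 2.13, multi-copy share -2.05 and CAUH 10.5. With clusters in annotated exons as the denominator, the member share was -1.52, rRNA -0.106, miRNA -0.316 and pseudogenes -0.923. With the central 24 nt, the multi-copy share was -0.435. Against clusters in protein-coding exons alone, members differed by 6.70 points in CAUH and 0.333 nt in width. In settings chosen after seeing the data, the CAUH difference from other clusters was -9.82 without mitochondrial pseudogenes, and in these alone the difference between groups was 2.93.

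Leaving out each library in turn gave -0.0119 to 0.0166 for rRNA, -16.5 to -10.5 for the mitochondrial family, 10.8 to 14.9 for other protein-coding parents, -0.721 to 0.0488 for cytosolic ribosomal proteins, -0.273 to 1.57 for unresolved parents, -0.848 to 1.42 for the multi-copy share and 6.54 to 9.94 for CAUH against other clusters. Permuting within replicate numbers as a replicate block changed no call (CAUH difference 9.47, exact permutation p = 0.0133).

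Clusters carry no depth, and no result was weighted by it.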
